A study of Mus musculus with 8 samples.

Results

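The comparison set the organoid line CTO19 against the line apsMC706 after EGF withdrawal, and it used 4 of the 8 libraries of the study, 2 for each line. The members were chosen by label: every library grown for 7 days without EGF, here called noEGF. Organoids are self-organising epithelial cultures. Both lines are C57BL/6 mouse colon cancer organoids, called APS because CRISPR was used to disrupt Apc, Trp53 and Smad4, so the same genes were targeted on either side. All organoids were kept in B27, noggin (which blocks BMP ligands) and galunisertib (which inhibits the TGF-beta receptor), and EGF was left out from the start in noEGF. The other 4 libraries came from the same lines after 3 days with EGF, called EM, and serve here to ask whether a line difference was as large with EGF. CTO19 is labelled male and apsMC706 female, so line and sex cannot be told apart, and genes on chromosomes X and Y were left out. Medium went with days in culture, and these cannot be told apart either. The labels do not say that the replicates of a line were separate cultures, so the p-values speak of the spread among these libraries. Each line stands for itself: 2 lines do not show what another line with the same genes disrupted would do.

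The colon is lined by a single layer of columnar cells, renewed by Lgr5-positive stem cells in the crypts and specified by transcription factors such as HNF4A and CDX2. Skin, oesophagus and the anal canal are lined instead by a stratified squamous epithelium, whose basal cells depend on the p53 relative p63 and make keratins 5 and 14, and whose upper layers cross-link filaggrin and related proteins into a cornified envelope. EGF drives both kinds of epithelium to divide by way of the ERK kinases, which switch on transcription factors such as MYC and ETV5 and their own inhibitors, among them the phosphatase DUSP6.

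The 4 noEGF libraries held 36341376 to 38953838 counts. Levels are CPM, counts scaled by library size and TMM factor, and log2 differences are CTO19 minus apsMC706, so a positive value means a higher level in CTO19. A count of 0 allows up to 3 counts, which is 0.0745 to 0.0818 CPM in these libraries and covers counting error only. Mitochondrially encoded genes took 4.13% and 4.6% of the counts in apsMC706 and 5.11% and 5.19% in CTO19. The component with 79.2% of the variance among all 8 libraries separated the lines, and the one with 12.8% separated the media. Among 119 genes that reached 50 CPM in CTO19 and were at least 50-fold lower in apsMC706, replicate 2 of apsMC706 was the higher of its line in 84. Replicate 2 of CTO19 was likewise the higher of its line in 29 of the 34 genes with the opposite pattern. The part that this has in the size of such differences was not tested, and for several genes the value without 1 library is given beside the difference. Fibroblast markers were higher in CTO19 in 5 of 6 tested genes and lower in 1. Their levels summed to 19.4 and 20.2 CPM for apsMC706 against 44.9 and 41.6 CPM for CTO19, with the fibroblast collagen gene Col1a2 at 0, 0, 1 and 0 counts. The macrophage gene Tyrobp had no count, and the pan-leukocyte gene Ptprc (CD45) had 1, 0, 0 and 1. Immune markers were higher in 2 and lower in 1 of 3 and summed to 7.75 and 7.56 against 13.2 and 11.6 CPM. Endothelial, glial and muscle markers were higher in 2 and lower in 0 of 4 and summed to between 2.84 and 3.75 CPM. The part of such cells in the results was not tested, and in bulk RNA fewer cells of a type and less RNA per cell cannot be told apart.

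The disrupted genes were measured first. SE below is the size of the log2 difference divided by the square root of the F statistic of its test. For genes with few counts in a line it can understate the error of the difference. Apc was 178 and 177 CPM in the apsMC706 libraries and 78 and 78.2 CPM in those of CTO19 (log2 difference -1.18, SE 0.0533, adjusted p = 3.6e-11, edgeR quasi-likelihood test, as for every adjusted p below). Smad4 was 39 and 39.9 against 18.1 and 19.1 CPM (-1.09), and Trp53 was 15.4 and 15 against 29.7 and 29.7 CPM (0.97). Transcripts of all of them were counted in each line. The edited positions were not at hand, so these levels do not check the deletions.

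Across the genome the lines differed at most tested genes. Of 16122 tested genes outside X and Y, 7377 (45.8%) were higher in CTO19 and 5542 (34.4%) were lower at an adjusted p under 0.05, together 12919 (80.1%). A difference of at least 2-fold was called at 3541 genes (22%) in favour of CTO19 and at 1987 (12.3%) in favour of apsMC706. At 8-fold or more the counts were 1685 (10.5%) and 551 (3.42%). The median log2 difference over all tested genes was 0.129. Counts for any gene group are therefore to be read against 45.8% higher and 34.4% lower.

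Most of the line difference was also there with EGF, and part of it was not. In EM, 6042 genes (37.5%) were higher in CTO19 and 5505 (34.1%) were lower, 11547 (71.6%) in all. At 2-fold or more these were 3130 (19.4%) and 1502 (9.32%), and at 8-fold or more 1474 (9.14%) and 503 (3.12%). Of the 12919 genes called in noEGF, 8450 (65.4%) had the same direction in EM, 1535 had the opposite direction and 2934 were not called there. The change of the difference, noEGF minus EM, was tested in the same model. It was called at 9065 genes (56.2%), positive at 4941 (30.6%) and negative at 4124 (25.6%). Which sign was the more frequent depended on the processing: there were 4309 positive and 4664 negative changes with upper-quartile factors, 4333 and 4851 with no filter on low counts, and 4017 and 4482 when 1 CPM was required in at least 4 libraries. Without replicate 1 of CTO19 in noEGF there were 4277 and 4648, and without replicate 2 there were 4176 and 4554. Among the genes called in noEGF, 6187 had a difference that was larger without EGF than with it or had turned round, and 1696 had a smaller one, each past the test of the change.

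**Figure D1:**
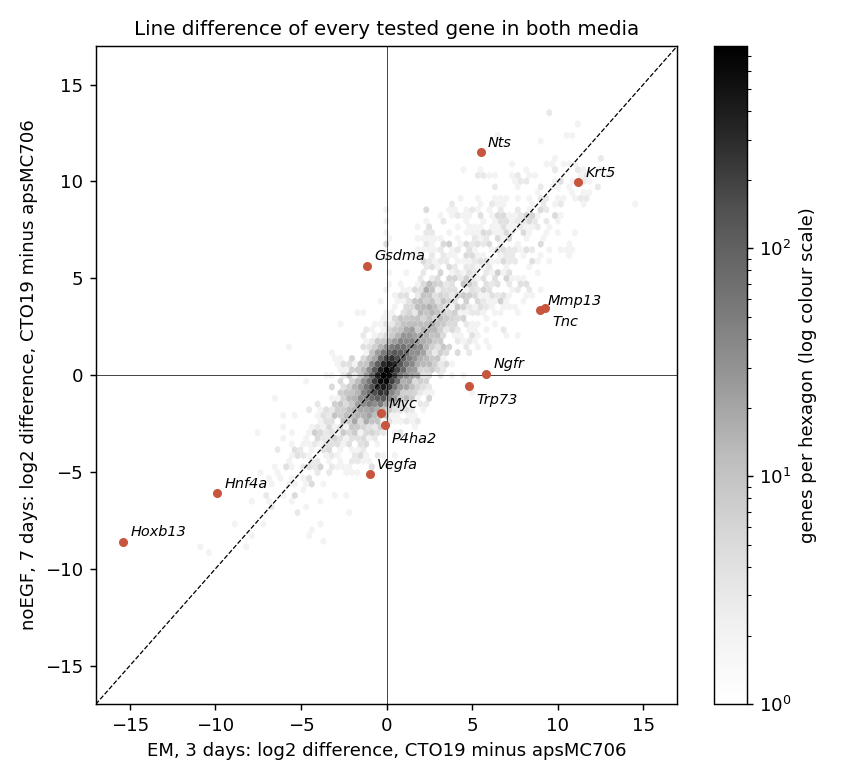
Each hexagon holds tested genes by their log2 line difference (CTO19 minus apsMC706) in EM after 3 days (x) and in noEGF after 7 days (y), with darker shades for more genes and a dashed line where both are equal. Most genes lie along the line, while Gsdma (-1.15 in EM, 5.64 in noEGF) lies above it and Ngfr (5.81 and 0.08) below; fitted values of genes with no count in a group depend on a prior count and are no measured fold.

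Epidermal genes led the differences in favour of CTO19. CTO19 without EGF had high levels of genes from the basal to the cornified layers of a squamous epithelium, from p63 and the basal keratins to filaggrin, for many of which apsMC706 had few counts or none. In EM, 19 of 20 tested keratins of stratified epithelia were higher in CTO19 and 0 lower (median log2 difference 7.5). Of 40 cornified envelope genes 37 were higher there and 2 lower (median 5.83). CTO19 means in EM were 130 CPM for Trp63, 3792 for Krt5 and 3481 for Krt14, above those in noEGF. Those of Flg and Rptn were 15.5 and 41.4 CPM, below those in noEGF. The regulatory windows of the cornified envelope genes are shown first, with the letters of 1 short motif that many of them hold. For 33 of the 40 genes in this list, RefSeq promoter windows were at hand (build GRCm38.p6, the 250 bases before the annotated start). The letters TGANTCA, the core of the site for the ERK-responsive factor AP-1 and its own reverse complement, stood in a window of 15 of the 33: Crnn, Dmkn, Flg, Flg2, Ivl, Krtdap, Lor, Rptn, Sbsn, Scel, Serpinb5, Sprr1a, Sprr1b, Sprr2b and Sprr2d. Counted over windows, 45.9% of those of the list held it, 6.77% of all 31396 windows outside X and Y, 5.29% of those of tested genes, 11.3% of those of genes at least 8-fold higher in CTO19, and 7.78% of those of genes at least 8-fold lower. A match describes letters and not binding. The windows of 3 cornified envelope genes and of the collagenase gene Mmp13 are printed 5′ to 3′ on the strand of the gene, with the match in capitals. Dmkn had 3 windows, of which the first to hold a match is printed.
Flg, plus strand, chr3:93273296-93273545: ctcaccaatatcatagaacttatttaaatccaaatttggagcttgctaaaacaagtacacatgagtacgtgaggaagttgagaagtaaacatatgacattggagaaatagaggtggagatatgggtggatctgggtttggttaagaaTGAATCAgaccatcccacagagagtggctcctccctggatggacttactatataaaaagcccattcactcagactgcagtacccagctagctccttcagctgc
Rptn, plus strand, chr3:93393449-93393698: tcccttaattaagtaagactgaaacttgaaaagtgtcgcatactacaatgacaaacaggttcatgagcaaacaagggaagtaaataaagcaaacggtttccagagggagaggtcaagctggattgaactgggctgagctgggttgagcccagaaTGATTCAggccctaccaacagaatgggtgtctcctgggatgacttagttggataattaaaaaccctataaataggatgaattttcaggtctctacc
Dmkn, plus strand, chr7:30763506-30763755: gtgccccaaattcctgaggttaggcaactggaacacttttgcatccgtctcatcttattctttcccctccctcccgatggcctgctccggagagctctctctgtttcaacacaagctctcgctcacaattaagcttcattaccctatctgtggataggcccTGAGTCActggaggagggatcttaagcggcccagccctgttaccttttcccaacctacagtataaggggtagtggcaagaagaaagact
Mmp13, plus strand, chr9:7272264-7272513: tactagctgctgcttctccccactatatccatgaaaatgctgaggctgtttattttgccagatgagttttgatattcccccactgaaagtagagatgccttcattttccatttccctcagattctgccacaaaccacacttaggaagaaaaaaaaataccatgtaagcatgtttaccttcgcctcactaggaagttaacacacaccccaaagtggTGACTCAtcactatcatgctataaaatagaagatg
The matches began 103, 96, 89 and 35 bases before the start, in the order printed. Letters of 4 other factors were searched on both strands. TTTATNG, a core of the CDX site, stood in 11.9% of the windows of genes at least 8-fold lower in CTO19, in 9.75% of all windows and in 6.73% of those of tested genes, and also in 21.6% of those of the cornified envelope list, in 8 of its 33 genes. On the other strand these letters read CNATAAA, which includes CTATAAA, a form of the TATA box. CTATAAA stands in the printed Rptn and Mmp13 windows. The part of TATA boxes in these shares was not tested. Windows with GCCNNNGGC (TFAP2) were 14.7% for genes at least 8-fold higher in CTO19, 13.9% of all and 19.7% for tested genes. Their share was 16% for genes at least 8-fold lower and 8.11% for the cornified envelope list (3 of its 33 genes). The GRHL site AACCGGTT stood in 0.144% (2 windows) for genes at least 8-fold higher, 0.118% of all and 0.185% for tested genes. It stood in 0 windows of the cornified envelope list and 0 of the genes at least 8-fold lower. The HNF4 letters CAAAGTCCA stood in 0.778% of the windows of genes at least 8-fold lower (4 of 514) and 0.287% of the higher (4 of 1393). The shares were 0.392% of all windows, 0.327% for tested genes and 0 for the cornified envelope list.

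Transcription factors of the squamous lineage were mostly higher in CTO19. Trp63, which encodes p63 (ENSMUSG00000022510, chromosome 16, 25683763 to 25892102 in the GENCODE M21 annotation of GRCm38, plus strand), was 0.0273 and 0.211 CPM in the apsMC706 libraries and 68 and 63.1 CPM in those of CTO19. Its log2 difference was 9.04 (adjusted p = 3.7e-15), 11.07 without replicate 2 of apsMC706 and 8.25 without replicate 1. Grhl1, a grainyhead factor of the epidermal barrier, was 18.6 and 19.5 against 102 and 103 CPM, 5.39-fold higher. Tfap2a, an AP-2 factor of surface ectoderm, was 13.4 and 13.8 against 66.2 and 65.7 CPM, 4.85-fold higher. For all 3 the libraries of the lines lay apart. The list had 21 tested genes, of which 16 were higher in CTO19 and 4 were lower (median log2 difference 1.99). One that was lower was Trp73, the gene of the p53 relative p73, at 4.09 and 4.17 against 2.74 and 2.76 CPM. With EGF Trp73 had the opposite direction, at a mean of 0.228 CPM in apsMC706 and 6.47 CPM in CTO19. Some factors of the list had few counts in either line and were not tested. In noEGF Sox2 had 0 and 0 counts in apsMC706 and 0 and 6 in CTO19. Tfap2b had 1 and 0 against 1 and 4, and Foxe1 0 and 0 against 0 and 1.

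Keratins of stratified epithelia were higher in CTO19 in 20 of 20 tested genes, with a median log2 difference of 8.74. Krt5, the type II keratin of basal cells (ENSMUSG00000061527, chromosome 15, 101707070 to 101712898, minus strand), was 0.927 and 3.54 CPM in the apsMC706 libraries and 2376 and 2076 CPM in those of CTO19 (log2 difference 9.95, SE 0.396, adjusted p = 1.8e-05). Its partner Krt14 was 0.982 and 3.65 against 2638 and 2411 CPM (10.08). These differences were 11.23 and 11.33 without replicate 2 of apsMC706, and 9.30 and 9.43 without replicate 1. Krt15, another basal keratin, was 0.845 and 0.608 against 49.1 and 52 CPM. Summed over the list, the keratins made 102 and 105 CPM in the apsMC706 libraries and 11609 and 10858 CPM in those of CTO19. CTO19 kept keratins of simple epithelia beside them. Krt8, which pairs with keratin 18 in columnar cells, was 378 and 377 against 896 and 888 CPM, and Krt7, a keratin of glandular and ductal cells, was 307 and 307 against 898 and 867 CPM. Of 5 simple keratins tested 3 were higher in CTO19 and 2, Krt18 and Krt23, were lower.

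Genes of the cornified envelope and of epidermal differentiation were higher in CTO19 in 38 of 40 tested genes and lower in 0, with a median log2 difference of 7.06. Flg, the filaggrin gene of the granular layer (ENSMUSG00000102439, chromosome 3, 93273523 to 93293686, plus strand), had 0 counts in both apsMC706 libraries and was 367 and 422 CPM in CTO19, at least 4900-fold higher when the floor of 3 counts per library is used. Hrnr, which encodes the related hornerin, had 0 counts against 227 and 258 CPM, at least 3020-fold higher. Klk7, a protease that sheds cornified cells, had 0 counts against 101 and 119 CPM, at least 1360-fold higher. Rptn, the repetin gene whose window is printed above, was 0.0545 and 0.106 against 1037 and 1359 CPM. Spink5, an inhibitor of these kallikrein proteases, was 0.164 and 0.158 against 359 and 365 CPM (log2 difference 11.11). Dmkn, the dermokine gene, was 0.709 and 0.502 against 574 and 607 CPM (9.93). The libraries of the lines lay far apart in each of these genes. Kallikreins and serine protease inhibitors as a list were higher in CTO19 in 17 of 23 tested genes and lower in 5 (median 7.42).

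Cell junctions followed in part. Of 14 desmosome genes 11 were higher in CTO19 and 3 lower, with a median log2 difference of 2.03. Pkp1, a desmosomal plaque protein of stratified epithelia, was 74.6 and 68 against 432 and 410 CPM (5.90-fold), while Pkp2, its counterpart in simple epithelia, was 46.6 and 44.7 against 28.4 and 28 CPM (1.62-fold lower). Perp, a desmosomal protein under the control of p63, was 84.9 and 88.5 against 805 and 798 CPM. Hemidesmosomes fasten basal cells to the basement membrane, and their genes were less one-sided: 7 of 11 were higher in CTO19 and 3 lower in noEGF (median 0.261), against 11 and 0 in EM (median 2.05), and the change was negative for 9 and positive for 0. Col17a1, a hemidesmosomal collagen, was 0.109 and 0.37 against 220 and 181 CPM (9.68, 10.80 without replicate 2 of apsMC706 and 9.07 without replicate 1). The tight junction list was split, with 9 of 21 genes in each direction.

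**Figure D2:**
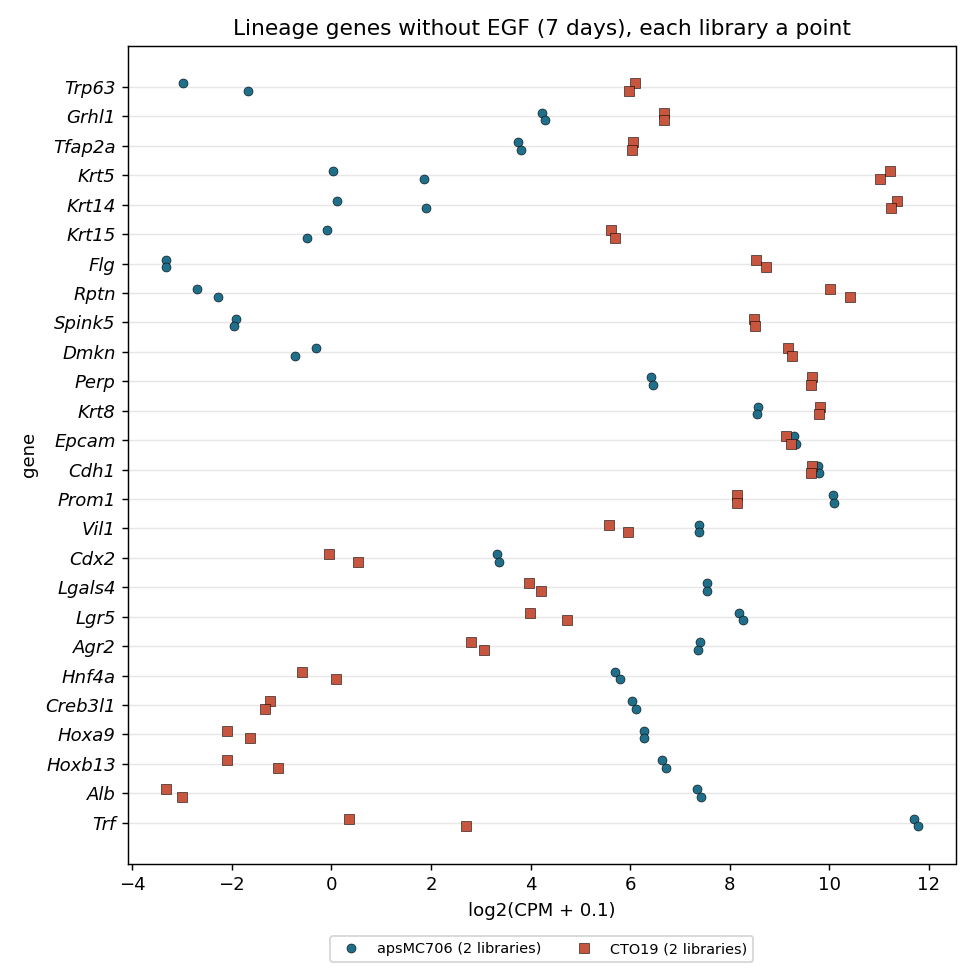
Points are the 4 noEGF libraries (circles apsMC706, squares CTO19) on a log2(CPM + 0.1) axis for lineage genes, with the squamous genes at the top and the intestinal, Hox and plasma protein genes at the bottom. The lines lie apart for every gene shown, by least for Epcam and Cdh1.

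Genes of the intestinal programme were mostly lower in CTO19, and several were still counted there. Hnf4a (ENSMUSG00000017950, chromosome 2, 163506808 to 163572910, plus strand), a nuclear receptor that maintains the enterocyte programme, was 52 and 55.5 CPM in the apsMC706 libraries and 0.565 and 0.969 CPM in those of CTO19 (log2 difference -6.11, SE 0.12, adjusted p = 3.9e-15). Cdx2, the homeobox factor of intestinal identity, was 9.98 and 10.2 against 0.861 and 1.34 CPM, 9.09-fold lower. Creb3l1, a factor of secretory cells, was 65.2 and 69.4 against 0.323 and 0.298 CPM (-7.75). Of 21 intestinal lineage factors tested, 13 were lower in CTO19 and 7 were higher (median -1.82). Hnf4a and Cdx2 were nonetheless above the floor of 3 counts in each CTO19 library.

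Markers of colonic epithelium were lower in CTO19 in 11 of 13 tested genes and higher in 2, with a median log2 difference of -0.783. Their summed levels were nonetheless close, at 4007 and 4041 CPM in the apsMC706 libraries and 4047 and 4132 CPM in those of CTO19. Lgals4, the galectin-4 gene of colonocytes, was 186 and 186 against 15.6 and 18.3 CPM (10.96-fold lower), and Vil1, the villin gene of the brush border, was 166 and 166 against 47.8 and 62.4 CPM (3.01-fold lower). The general epithelial genes were near each other. Cdh1, the E-cadherin gene, was 875 and 886 against 807 and 793 CPM (-0.14, adjusted p = 0.0031). Epcam was 630 and 648 against 558 and 605 CPM (-0.14, adjusted p = 0.020), and this call was lost without replicate 2 of apsMC706 (adjusted p = 0.148) or replicate 1 (adjusted p = 0.0502). Some markers of mature colon were missing from both lines: in the order apsMC706 replicates 1 and 2 and CTO19 replicates 1 and 2, Krt20 had 1, 1, 2 and 4 counts, Cdx1 3, 4, 4 and 2, and Slc26a3, the chloride exchanger of surface colonocytes, 1, 2, 0 and 1. Absorptive and brush border genes were lower in 12 and higher in 7 of 21. Car2, a carbonic anhydrase of colonocytes, was 2246 and 2284 against 343 and 306 CPM (log2 difference -2.80).

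Stem cell markers were lower in CTO19 in 15 of 21 tested genes and higher in 3 (median -0.945). Lgr5, the receptor of crypt base stem cells (ENSMUSG00000020140, chromosome 10, 115450311 to 115587780, minus strand), was 290 and 310 CPM in the apsMC706 libraries and 15.7 and 26.5 CPM in those of CTO19, 14.1-fold lower (log2 difference -3.82, SE 0.238, adjusted p = 8.3e-05). Prom1, which encodes CD133, was 1084 and 1088 against 283 and 284 CPM. Igfbp4, an IGF-binding protein of crypt cells, was 103 and 99.3 against 0.188 and 0.273 CPM. The lines lay apart for each of these.

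Secretory cell genes split by cell type. Paneth and deep crypt secretory genes were lower in 6 of 8 tested genes and higher in 2 (median -4.26). Mmp7, a matrilysin of Paneth cells, was 772 and 808 against 105 and 81.2 CPM, 8.49-fold lower, and it overlaps the gene AV064505, whose reads cannot be told apart without strand. Reg4, a lectin of deep crypt secretory cells, was 61.6 and 64.6 against 0.108 and 0.323 CPM (-8.15, and -9.24 without replicate 2 of CTO19). Goblet cell and mucin genes were higher in 11 of 20 and lower in 8, with a positive median of 0.694. Among the lower ones, Agr2, a disulphide isomerase needed to fold mucins, was 170 and 164 against 6.89 and 8.32 CPM (-4.46), and Tff3, the trefoil factor of goblet cells, was 19.4 and 17.1 CPM against 2 and 3 counts. Tuft cell genes were higher in 5 and lower in 3 of 10. The peptide hormone gene Nts (neurotensin) stood apart from the other enteroendocrine genes: it was 0.0818 and 0.185 CPM in the apsMC706 libraries and 428 and 361 CPM in those of CTO19 (11.49, and 12.18 without replicate 2 of apsMC706). It was the single higher gene of 4 tested in that list, and the other 3 were lower.

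Hox genes, which record position along the body axis, differed cluster by cluster. In cluster A 9 of 11 genes were lower in CTO19 and 0 were higher (median -2.27), with Hoxa9 at 77.5 and 77.5 against 0.135 and 0.224 CPM (-8.72). In cluster B 8 of 9 were higher and 1 was lower (median 3.40). Hoxb8 was 1.53 and 1.24 against 165 and 157 CPM, 116-fold higher, and Hoxb9 was 22.3 and 19.9 against 290 and 315 CPM, 14.3-fold higher. The exception in cluster B was its last member, Hoxb13, a gene of the hindmost gut, at 100 and 105 against 0.135 and 0.373 CPM (-8.61, and -9.62 without replicate 2 of CTO19). No gene of cluster C and 2 of cluster D were tested, 1 in each direction.

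Some genes were counted in a single line, among them Flg, Hrnr and Klk7 on the CTO19 side and Alb, Tff3 and Ppargc1a on the other. The rule was at least 1 CPM in both libraries of a line and at most 3 counts in each library of the other. Over all chromosomes, 12959 and 12961 genes reached 1 CPM in the apsMC706 libraries and 13752 and 13845 in those of CTO19. Of 30736 genes outside X and Y, tested or not, 501 met the rule for CTO19 alone (486 protein-coding) and 91 for apsMC706 alone (66 protein-coding). At least 10 CPM was reached by 141 and 17 of them. In EM a looser rule was set on the means: at least 1 CPM in the line and a level near the floor of 3 counts in the other. It was met by 300 of the 501 and 39 of the 91. On the apsMC706 side, Alb, the gene of serum albumin, was 161 and 171 CPM against 0 and 1 counts. Ppargc1a, the coactivator of mitochondrial biogenesis, was 24.1 and 25.5 CPM against 3 and 1 counts. Trf, F5 and B3gnt5 were above 3 counts in a CTO19 library and so lay outside this count, with large differences all the same. Trf, the transferrin gene, was 3341 and 3518 CPM in the apsMC706 libraries and 1.18 and 6.39 CPM in those of CTO19 (-9.79, -11.58 without replicate 2 of CTO19 and -9.16 without replicate 1). F5, which encodes coagulation factor V, was 41.7 and 38.8 against 0.0269 and 0.0994 CPM. Liver is the main source of albumin, transferrin and factor V in the body. B3gnt5, a glycosyltransferase of glycolipid synthesis, was 1190 and 1238 against 0.727 and 1.57 CPM.

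Receptors of the EGF family were present in both lines after withdrawal. Egfr was 32.2 and 34 CPM in the apsMC706 libraries and 86.4 and 77.3 CPM in those of CTO19, 2.47-fold higher. Erbb2, which overlaps Mien1, was 64.6 and 67 against 145 and 142 CPM, 2.18-fold higher. Erbb3, the receptor without an active kinase of its own, was 193 and 191 against 154 and 161 CPM, slightly lower in CTO19 (-0.29, adjusted p = 8.2e-06). The ligands went both ways: Tgfa was 32.5 and 31.1 against 100 and 97.3 CPM (3.10-fold higher), and Btc, the betacellulin gene, was 47 and 46.1 against 9.26 and 11.4 CPM (4.49-fold lower). Of 17 receptors and ligands 8 were higher and 8 lower.

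ERK targets, in contrast, were lower in CTO19 in 20 of 30 tested genes and higher in 6, with a median log2 difference of -1.03. Dusp6, the phosphatase that dampens ERK (ENSMUSG00000019960, chromosome 10, 99263231 to 99267489, plus strand), was 217 and 213 CPM in the apsMC706 libraries and 32.4 and 30.7 CPM in those of CTO19, 6.80-fold lower (-2.77, SE 0.048, adjusted p = 5.3e-16). Etv5, an ERK-induced transcription factor, was 59.5 and 56.3 against 5.11 and 6.34 CPM, 10.1-fold lower. Myc was 369 and 368 against 99.5 and 90.2 CPM, 3.89-fold lower. These gaps were smaller with EGF, where Dusp6 had means of 144 and 84.7 CPM, Etv5 63.5 and 18.8 and Myc 192 and 155. The change of the line difference was -2.0 for Dusp6, -1.58 for Etv5 and -1.65 for Myc (adjusted p = 1.4e-11, 1e-08 and 5.9e-11). In the list the change was negative for 24 genes and positive for 0, and the EM median was -0.07. Fosl2, an AP-1 subunit, was the other way, at 84.4 and 84.6 against 240 and 243 CPM (1.51).

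**Figure D3:**
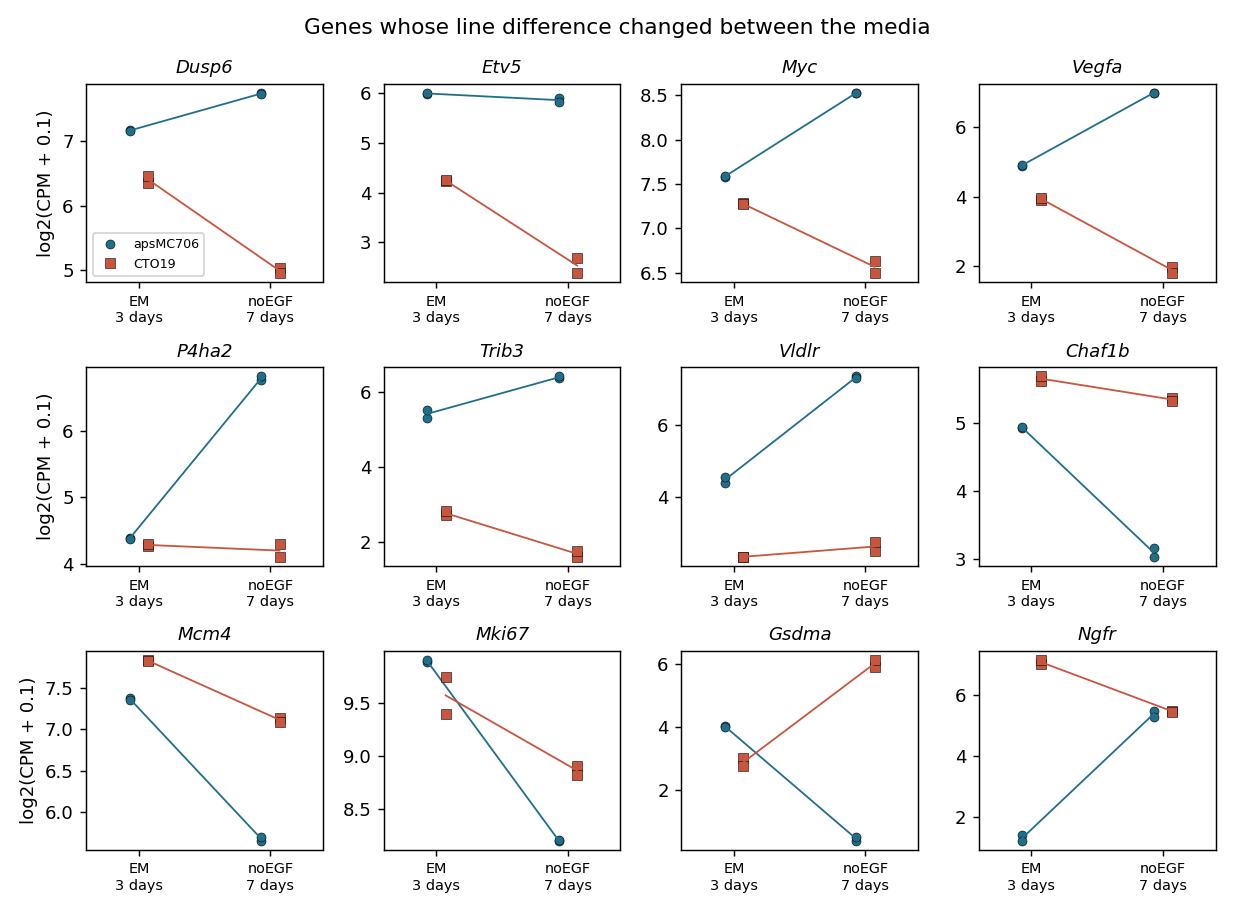
Each panel plots the 8 libraries of a gene as log2(CPM + 0.1) by medium (circles apsMC706, squares CTO19, lines joining the means of the log2 values). Dusp6, Myc, Vegfa and Trib3 are higher in noEGF than in EM in apsMC706 and lower in CTO19, Chaf1b and Mcm4 are lower in noEGF in both lines and more so in apsMC706, Gsdma crosses, and Ngfr reaches 39.2 to 44.6 CPM in all 4 noEGF libraries.

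Genes of DNA replication were mostly higher in CTO19 without EGF and mostly lower with it. Of 39 S phase genes 32 were higher in CTO19 and 3 lower (median 0.755), against 6 and 23 in EM (median -0.18), and the change was positive for 38 and negative for 0. Chaf1b, a subunit of the chromatin assembly factor that follows the fork (ENSMUSG00000022945, chromosome 16, 93883901 to 93906115, plus strand), was 8.05 and 8.8 against 41.1 and 39.8 CPM, 4.80-fold higher (2.26, SE 0.0637, adjusted p = 1.1e-13). Mcm4, a subunit of the replicative helicase, was 50.2 and 52 against 141 and 136 CPM, 2.71-fold higher. Chaf1b and Mcm4 were among the 6 that were higher in EM too, by 0.72 and 0.46 on the log2 scale. Pcna, the sliding clamp, was an exception at 384 and 370 against 256 and 238 CPM (-0.61). G2 and M phase genes were higher in 18 of 38 and lower in 7 (median 0.0834), against 2 and 32 in EM, with a positive change in 37 and a negative one in 0. The 7 became 12 with upper-quartile scaling or without replicate 1 of CTO19 in noEGF, and 3 without replicate 2 of apsMC706. Mki67, the marker of cycling cells, was 294 and 295 against 481 and 452 CPM, 1.58-fold higher (adjusted p = 0.0018, 0.0526 without replicate 1 of CTO19).

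Hypoxia-induced and stress response genes were lower in CTO19. Of 31 glycolysis and hypoxia genes 20 were lower and 7 higher (median -0.586), against 12 and 16 in EM (median 0.249), with a negative change in 27 and a positive one in 1. The 7 became 3 without replicate 2 of CTO19. Vegfa, the angiogenic growth factor (ENSMUSG00000023951, chromosome 17, 46016993 to 46032369, minus strand), was 126 and 127 CPM in the apsMC706 libraries and 3.85 and 3.4 CPM in those of CTO19, 34.8-fold lower (-5.12, SE 0.0643, adjusted p = 2e-17). In EM its means were 29.9 and 15.3 CPM, and the change was -4.16 (adjusted p = 2.3e-13). P4ha2, a collagen prolyl hydroxylase, was 108 and 112 against 19.6 and 17.1 CPM, 6.01-fold lower, while in EM the means were 20.8 and 19.4 CPM (adjusted p = 0.19). Not all members did this: Slc2a1, the glucose transporter GLUT1, was 61.7 and 60.3 against 104 and 104 CPM, and Car12, a carbonic anhydrase, was 0.764 and 0.792 against 69.9 and 66.7 CPM.

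The ATF4 and unfolded protein response list, which covers the answer to amino acid shortage and to misfolded protein, was lower in CTO19 in 28 of 34 tested genes and higher in 3 (median -1.03, EM median -0.169, negative change in 27). Trib3, a pseudokinase induced by ATF4, was 83.1 and 85.8 against 2.93 and 3.3 CPM, 27.0-fold lower. Vldlr, a lipoprotein receptor, was 161 and 158 against 5.57 and 6.53 CPM, 26.3-fold lower. Gdf15, a stress-induced hormone listed with the p53 targets, was 25.9 and 23.5 against 0.296 and 0.373 CPM (-6.19). The p53 list as a whole, in lines with Trp53 disrupted, had 15 higher and 7 lower of 26.

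Genes of protein synthesis were mostly lower in CTO19. Ribosome biogenesis genes were lower in 28 of 38 and higher in 4 (median -0.301). Among the 4 was Rrp12, a ribosome export factor, at 24.3 and 24.9 against 38.3 and 35.9 CPM (0.59). Cytosolic ribosomal protein genes, a list added after values were seen, were lower in 68 of 73 and higher in 2 (median -0.77, EM median -0.119, negative change in 68). Rpl4 was 2528 and 2548 against 1123 and 1097 CPM, 2.29-fold lower, and small RNA genes lie within it.

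Metabolic genes were divided. Glutathione and NRF2 targets were higher in CTO19 in 26 of 28 tested genes and lower in 1 (median 1.45), with the glutathione transferase gene Gsto1 at 90.8 and 95.3 against 2295 and 2107 CPM (23.7-fold). Catalase (Cat), which breaks down hydrogen peroxide, was 48.7 and 48.7 against 143 and 145 CPM. Cholesterol and fatty acid synthesis genes were higher in 20 and lower in 10 of 32. Fatty acid oxidation genes were higher in 13 and lower in 6 of 27, oxidative phosphorylation genes higher in 14 and lower in 16 of 39, FOXO targets higher in 14 and lower in 11 of 25, and lysosome and autophagy genes higher in 17 and lower in 13 of 31. Mitochondrially encoded genes were higher in 8 of 13 and lower in 0 (median 0.423). That count was 5 with DESeq2 size factors, 4 with upper-quartile factors and without replicate 2 of apsMC706, and 3 without either CTO19 replicate. Of these, mt-Nd3, a subunit of complex I, was 437 and 400 against 631 and 602 CPM.

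**Figure D4:**
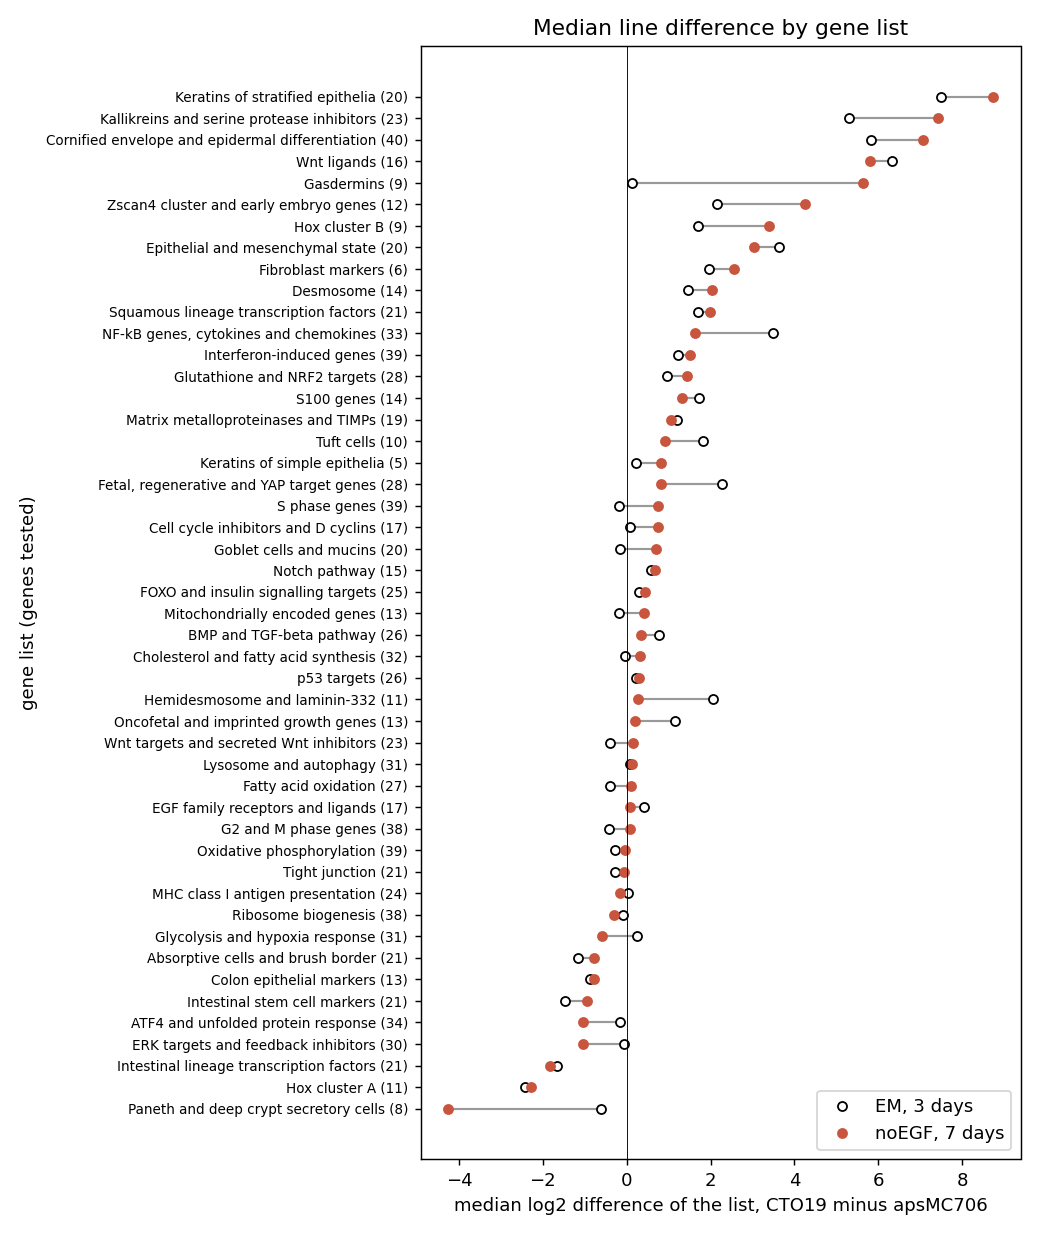
Each row is a gene list with at least 5 tested genes (number in brackets), with its median log2 line difference in noEGF (filled) and EM (open). Stratified keratins (8.74) and kallikreins (7.42) are farthest to the right and Paneth genes (-4.26) farthest to the left, and the S phase list moves from -0.18 in EM to 0.755 in noEGF while the ERK target list moves from -0.07 to -1.03.

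Inflammatory and interferon genes were higher in CTO19. NF-kB genes, cytokines and chemokines were higher in 27 of 33 and lower in 5 (median 1.62), and the EM median was 3.50 with a negative change in 20 genes. Il1a, the alarmin interleukin-1 alpha stored in keratinocytes, was 0.818 and 0.951 against 64.7 and 59.2 CPM (6.12). Cxcl10, a chemokine for T cells, was lower at 13.7 and 13.6 against 4.49 and 3.3 CPM (-1.81). Interferon-induced genes were higher in 29 of 39 and lower in 5 (median 1.52), and the 5 became 9 without replicate 2 of CTO19. One of the 5 was Bst2, the tetherin gene, at 22.5 and 24.8 against 6.43 and 9.47 CPM. MHC class I presentation genes were higher in 8 and lower in 12 of 24.

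Wnt ligand genes were higher in CTO19 in 14 of 16 tested genes and lower in 1 (median 5.79), in lines whose Apc disruption acts downstream of the ligands. Wnt10a was 1.04 and 0.845 against 42.3 and 39.1 CPM (5.43), and Wnt7a was 0.109 and 0.211 against 11.7 and 11.2 CPM (6.12). Targets of Wnt and secreted Wnt inhibitors were higher in 10 and lower in 10 of 23. Notch pathway genes were higher in 12 and lower in 2 of 15. Notch3, a receptor of basal and mural cells, was 6.74 and 7.32 against 86.7 and 100 CPM, 13.3-fold higher, while Hes1, the common Notch target, was 123 and 128 against 62.7 and 66.2 CPM, 1.94-fold lower. Hes1 had been higher in CTO19 in EM (means 36 and 54 CPM).

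The list of epithelial and mesenchymal state was higher in 15 of 20 and lower in 4 (median 3.04). Snai2, a repressor found in basal keratinocytes and in mesenchyme, had 1 and 0 counts in apsMC706 and was 26.2 and 22.4 CPM in CTO19. Vim, the intermediate filament of mesenchymal cells, was the reverse, at 171 and 172 against 2.64 and 3.98 CPM (-5.68). The list thus held strong differences in both directions. Matrix metalloproteinases and TIMPs were higher in 12 and lower in 4 of 19, with the collagenase Mmp13 at 1.39 and 1.45 against 14.5 and 14.5 CPM. Fetal, regenerative and YAP target genes were higher in 19 and lower in 6 of 28 (median 0.808, EM median 2.28), with a negative change in 19. BMP and TGF-beta pathway genes were higher in 19 and lower in 5 of 26. Tgfb2, a TGF-beta ligand whose receptor galunisertib inhibits, had 0 and 3 counts in apsMC706 and was 123 and 111 CPM in CTO19. Among 13 oncofetal and imprinted genes 6 were higher and 5 lower. Igf2bp2, an oncofetal RNA-binding protein, was 11.2 and 12.7 against 46.5 and 45.6 CPM, and the imprinted H19 RNA was 1.47 and 1.61 against 97.4 and 79.8 CPM. S100 genes were higher in 12 and lower in 2 of 14. The 12 tested genes of the Zscan4 cluster and early embryo list were all higher (median 4.24), but they include near-identical copies whose counts are uncertain.

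Several genes differed between the lines in a different way once EGF was gone. Gasdermins, pore-forming proteins of inflammatory cell death, were higher in 7 of 9 and lower in 2 (median 5.64), against 2 and 3 in EM (median 0.124). Gsdma, the gasdermin of skin (ENSMUSG00000017204, chromosome 11, 98664351 to 98677708, plus strand), was 1.23 and 1.35 CPM in the apsMC706 libraries and 59.8 and 68.7 CPM in those of CTO19, 49.8-fold higher (5.64, SE 0.116). In EM it was lower in CTO19 (means 16.2 and 7.3 CPM), and the change was 6.79 (adjusted p = 9.5e-13). Ngfr, the low-affinity neurotrophin receptor of basal cells (ENSMUSG00000000120, chromosome 11, 95568818 to 95587735, minus strand), was 44.5 and 39.2 against 44.6 and 44 CPM. This difference was not called (0.08, SE 0.0622, adjusted p = 0.24, though 0.0361 without replicate 1 of apsMC706), whereas the EM means were 2.41 and 135 CPM and the change was -5.73. Tnc, the matrix protein tenascin C, was 3 and 2.56 against 30.7 and 30.5 CPM, and its EM means were 0.0805 and 52.2 CPM (change -5.82). Nts went the other way, with EM means of 0.0938 and 4.41 CPM.

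By chromosome, the median log2 difference in noEGF was highest on chromosome 17 (0.43, with 59.7% of 842 genes higher and 21.5% lower), then 16 (0.363) and 13 (0.333), and lowest on 15 (-0.0921). In EM the medians of these 4 were 0.186, 0.173, 0.155 and -0.136. Within windows of 10 Mb, genes between 90 and 100 Mb of chromosome 16 were higher in CTO19 in 84.3% of 70 (median 1.1, EM median 0.849). Larger medians were found on chromosome 10 between 100 and 110 Mb (2.49, EM median 1.74, 64.7% of 34 genes higher). The same held for chromosome 13 between 20 and 30 Mb (1.28, EM median 0.373, 75% of 96 genes higher). On chromosome 3, 68% of 203 genes between 90 and 100 Mb were higher (median 0.787), and this window holds Flg, Hrnr and Rptn. On chromosome 2 the end of the chromosome was lower in CTO19, at 77.5% of 71 genes between 170 and 180 Mb (median -0.773, EM median -0.575) and 69.4% of 49 genes between 180 and 190 Mb (median -0.583, EM median -0.535). No copy number was measured.

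**Figure D5:**
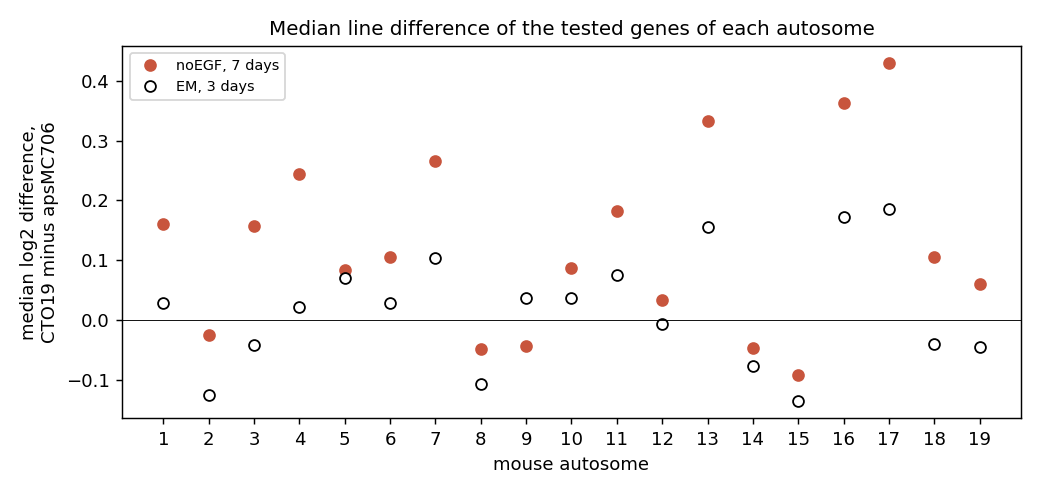
Each point is the median log2 line difference of the tested genes of a mouse autosome, filled for noEGF and open for EM. Chromosomes 13, 16 and 17 have the highest noEGF medians (0.333, 0.363 and 0.43) and chromosome 15 the lowest (-0.0921).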

How the data were processed

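RNA of the 8 libraries was poly(A)-selected and made into libraries with 8 cycles of amplification, per the labels. The authors deposited raw counts per Ensembl gene, which were whole numbers. Reads were aligned with STAR 2.7.0a to mm10, per the submitters' processing notes. The sources used here do not name the counting program, its strand setting or the annotation, so overlapping genes cannot be told apart. Names and positions came from GENCODE M21 (GRCm38), which placed all but 101 of 32728 genes on a chromosome.

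Counts were analysed with edgeR 4.0.16 in R 4.3.3: TMM factors, filterByExpr over the 4 groups (16719 genes kept), and quasi-likelihood F-tests, two-sided, in a model of the 4 group means with 4 residual degrees of freedom. Benjamini-Hochberg adjustment covered every tested gene, with a threshold of 0.05. Of the tested genes, 565 on X and Y and 32 without a chromosome were left out of every count. Libraries held 35650262 to 38953838 counts. Amplified reads are not independent molecules, so floors of 3 counts cover counting error only. Folds against 0 counts used that floor per library.

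The members, the gene lists, the motifs and the rule for named genes were chosen with earlier results of these data known. The rule took the 12 largest log2 differences in each direction at a level of at least 10 CPM, the 8 largest CPM differences, the 3 members of smallest p in each list and direction, the 6 largest changes in each direction and a set of lineage and target genes. List members printed with counts because they were not tested, and the genes listed with a promoter motif, were named outside it. Promoter windows came from RefSeq (GRCm38.p6) and matched 11124 of 16121 tested gene symbols. The models were tested on simulated data. The main model did not pair libraries by replicate number. Differences between replicates correlated between groups at -0.000714 to 0.0474 across genes. Such values cannot show whether libraries of the same number were handled together.

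Results on some genes are not reported here.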

Additional observations from a re-analysis of the deposited data

Results flagged for a closer look

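The genes below were picked out because the test of the difference between media (noEGF minus EM, edgeR, adjusted p under 0.05) called a change of the line difference. Of all tested genes 56.2% were called in this test, so the sizes are given and the number of such genes is not a result.

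The lead of CTO19 was wider without EGF for Grhl1 (change 1.82), Krt15 (1.39), Krt8 (0.40), Dmkn (1.74), Spink5 (2.66), Pkp1 (0.66), Perp (0.95), Hoxb8 (0.81), Hoxb9 (1.27), Nts (5.98) and Tgfb2 (5.34). The Spink5 change was lost without replicate 2 of apsMC706 in EM (adjusted p = 0.146), and that of Nts without replicate 1 or 2 of CTO19 in EM (0.0636 and 0.0612). The Nts change was 6.69 without replicate 2 of apsMC706 in noEGF. The Tgfb2 change was 9.03 without replicate 2 of apsMC706 in noEGF and 4.42 without replicate 1. Genes that were lower in CTO19 in both media lay closer to apsMC706 without EGF: Hnf4a (3.78), Lgals4 (2.06), Car2 (2.07), Vil1 (1.41), Prom1 (0.36), Cdh1 (0.49), Epcam (0.25), Pcna (0.64), Apc (0.41), Smad4 (0.44) and Hoxb13 (6.78). Hoxb13 had no count in CTO19 with EGF, so its change depends on the prior count, and it was 5.73 without replicate 2 of CTO19 in noEGF. The Hnf4a change was 4.99 without replicate 2 of CTO19 in EM and 3.15 without replicate 1. The Epcam change was lost without replicate 2 of CTO19 in noEGF (adjusted p = 0.168), with upper-quartile factors (0.0559) and with 1 CPM required in at least 4 libraries (0.063).

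The lead of CTO19 was smaller without EGF for Tfap2a (-0.65), Car12 (-3.61), Egfr (-1.01), Tgfa (-0.52), Wnt10a (-1.65), Notch3 (-3.33), Il1a (-2.93), Mmp13 (-5.64), Tnc (-5.82), Ngfr (-5.73), Igf2bp2 (-1.45), H19 (-2.84), Trp63 (-2.11) and Wnt7a (-7.15, with no count in apsMC706 in EM, so that it depends on the prior count). The H19 change was lost without replicate 1 of apsMC706 in EM (adjusted p = 0.0642). The Trp63 change was -0.09 without replicate 2 of apsMC706 in noEGF (adjusted p = 1) and -2.90 without replicate 1, and was lost without replicate 1 or 2 of apsMC706 in EM (0.129 and 0.119) and without replicate 1 or 2 of CTO19 in EM (0.0641 and 0.0654). The direction turned round between media for Trp73 (-5.39), Hes1 (-1.54), Gsdma (6.79) and Mki67 (0.98).

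The gap in favour of apsMC706 was wider without EGF for Dusp6 (-2.0), Etv5 (-1.58), Myc (-1.65), Vegfa (-4.16), P4ha2 (-2.49), Trib3 (-2.08), Vldlr (-2.56), Gdf15 (-3.27), Mmp7 (-1.76), Rpl4 (-0.85), Cdx2 (-1.0), Igfbp4 (-1.77) and Vim (-1.18). The lead of CTO19 was also wider for Chaf1b (1.54), Mcm4 (0.98), Gsto1 (1.19), Cat (0.63) and Erbb2 (0.64). The change was 0.74 for mt-Nd3, whose difference with EGF was not called (adjusted p = 0.0746).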

How the results depend on the processing

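Alternatives changed 1 choice at a time: scaling, filters, limma-voom, the DESeq2 1.42.0 Wald test, a test against a fold of 1.5, X and Y genes removed, the 4 libraries alone, the replicate number as a block, and each library left out. The Wald test used its own size factors, so it changed scaling and test together. No called value of a named gene changed sign, though some changes that were not called did: with 1 library left out, that of Snai2 went from -0.16 to 2.16, Krt5 from -1.26 to 0.02, Krt14 from -1.24 to 0.01 and F5 from 1.2 to -0.05. List counts of 0 to 2 moved by 1 gene with a library left out for Wnt ligands, S100, cornified envelope, mitochondrially encoded, Hox cluster D, glutathione, immune and endothelial genes. Of 1602 repeats of a named gene's line difference 1590 kept direction and side of the threshold, as did 1451 of 1513 repeats of its change. Against a fold of 1.5, 4322 genes were higher and 2730 lower in CTO19 without EGF, 3469 and 1899 in EM, and 1585 changes were positive and 1505 negative. With 1 CPM required in at least 4 libraries, 2213 genes were at least 2-fold higher, a filter that removes genes counted in 1 group: the gasdermins higher in CTO19 then numbered 1 and the intestinal factors 4. Genes counted in a single line were 227 (CTO19) and 32 (apsMC706) at 5 CPM or more, and 181 and 16 with no count in the other line. With the replicate block the counts were 7413 and 5548 in noEGF, 6077 and 5536 in EM, and 4965 and 4137 for the change. The Wald test gave 6419 and 5405 in noEGF. Leaving out 1 library gave 6644 to 7655 higher and 5102 to 5981 lower, and 4176 to 4863 positive and 3570 to 4648 negative changes. With upper-quartile factors the median difference was 0.0331, and 52% of called genes were higher in CTO19 against 57.1%. Genes at 0 to 3 counts in a line have no measured fold.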
